A study of Homo sapiens with 4 samples.

Results

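The mRNAs of PDCD4 itself and of 9 proteins of the eIF4A and eIF4F families and their cofactors (EIF4A1, EIF4A2, EIF4A3, EIF4G1, EIF4G2, EIF4G3, EIF4B, EIF4H and EIF4E) were followed through an iCLIP experiment. A crosslink site was taken for one of these 10 genes, of 14416 genes with a site in all, when the gene label of the site held the exact symbol. The cells were wild-type MCF10A, an established line of untransformed breast epithelial cells, and the study asked which RNAs PDCD4 contacts. The groups differed in the antibody alone, which was against PDCD4 for 2 replicates and a control IgG for the other two. In iCLIP, ultraviolet light links RNA to protein, and cDNAs that stop at the linked nucleotide mark the contact. The deposited lists pool the replicates of each immunoprecipitation, so each gene has 1 value for PDCD4 and 1 for IgG, there is no spread between replicates, and no test between the groups was run.

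The eIF4F complex brings the ribosome to capped mRNA. Within it eIF4E holds the cap, eIF4G is the scaffold, and eIF4A is an RNA helicase that eIF4B and eIF4H stimulate. PDCD4 is a tumour suppressor whose MA3 domains bind eIF4A and keep it from RNA and from eIF4G, while the PDCD4 mRNA is a known target of the microRNA miR-21. The values below concern crosslinking to the mRNAs of these proteins, not contacts between the proteins.

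The PDCD4 list held 158922 sites with 409308 cDNAs, and the IgG list 111361 sites with 276139 cDNAs. Each site is 1 nt wide, and its score is its cDNA count. All 8 basal breast epithelial marker genes carried PDCD4-list cDNAs (1254 in all, and 491 in the IgG list for 7 of the 8), whereas 1 of 6 marker genes of other cell types did, with 2 cDNAs. In the whole lists, coding sequence held 22.0% of the PDCD4 cDNAs and 10.2% of the IgG cDNAs, and introns 48.3% and 65.3%. The methods describe removing IgG crosslink positions from the PDCD4 data before sites were called. However, 721 positions stand in both lists, among them 4 of the PDCD4 and 5 of the IgG sites counted below, so the form of this step is not known from the files and a missing PDCD4 site at an IgG position cannot be read as no contact.

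The 10 genes held 318 PDCD4 sites with 883 cDNAs (0.216% of the list). In the IgG list they held 194 sites and 518 cDNAs (0.188%). The highest score was 8 among the PDCD4 and 7 among the IgG sites of the 10 genes. Their median scores were 2.5 and 3, where the median of all sites was 2 in both lists. A score greater than 5, the threshold the methods name, was found at 13 of the 318 PDCD4 sites (5 in EIF4G1, 4 in EIF4A1, 2 in EIF4A2 and 2 in EIF4G2) and at 2 of the IgG sites (1 in EIF4G1 and 1 in EIF4G2). These are 4.09% and 1.03% of the sites of the 10 genes, beside 1.48% and 0.690% of all sites. Some of the 13 PDCD4 sites lay in small RNA genes within introns (SNORA67, SNORA81 with MIR1248, SNORA63 and SNORD97), not in the mRNAs.

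The sequences around the sites that the results turn on are shown first, each as 30 nt of the transcript strand in GRCh38, 5′ to 3′, with the crosslinked nucleotide in capitals. The first 3 are the highest coding sites of EIF4G1, which had the largest PDCD4 over IgG ratio. The next is its highest IgG site, in the 3′UTR.
EIF4G1 exon 18, chr3:184324974-184325003, plus strand, PDCD4 score 8: ttcaaactgaagatgTtaacagaggcaata
EIF4G1 exon 10, chr3:184321501-184321530, plus strand, PDCD4 score 7: aaactggggagccatAtcgcctctctccag
EIF4G1 exon 5, chr3:184317393-184317422, plus strand, PDCD4 score 7: cctggcccagctgccCatgtctaccctgct
EIF4G1 exon 33, chr3:184335139-184335168, plus strand, IgG score 7: atataaagtcttgaaAtttggtgtgtcttg

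For EIF4G2 the highest site in coding sequence of the PDCD4 list and the highest site of the IgG list, in the 5′UTR, show where the lists parted within 1 mRNA.
EIF4G2 exon 18, chr11:10800285-10800314, minus strand, PDCD4 score 6: tggaggttgacatccCtttggtgaaatcct
EIF4G2 exon 1, chr11:10808792-10808821, minus strand, IgG score 7: cccccttccctccccCttttttttgttttc

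The highest sites of EIF4A1 and EIF4A2 lay in small RNA genes inside their introns (SNORA67, and SNORA81 with MIR1248, the first of 2 tied sites), and that of EIF4A3 in its 3′UTR.
EIF4A1 intron 9, chr17:7578006-7578035, plus strand, PDCD4 score 7: gcagcttggaatagaAtctggcatgcctaa
EIF4A2 intron 7, chr3:186786716-186786745, plus strand, PDCD4 score 7: gaccatgtcttggttTttgcaataatgcta
EIF4A3 exon 12, chr17:80135303-80135332, minus strand, PDCD4 score 5: ctctcttttcttattTacatgtaaataata

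The highest PDCD4-list score was 6 in EIF4G2 (2 sites, the coding site above and a site in SNORD97), 5 in EIF4G3 (3 sites), 4 in EIF4B (3 sites), EIF4H (2 sites) and EIF4E (1 site), and 3 in PDCD4 (2 sites). The 30 nt after the site also occurred in transcripts of other genes for 6 of the 318 PDCD4 sites and 7 of the 194 IgG sites.

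Among these windows the crosslinked nucleotide itself was T, A or C. Over all member sites it was T (U in the RNA) at 153 of 318 PDCD4 sites (48.1%, 95% Wilson interval 42.7% to 53.6%) and 108 of 194 IgG sites (55.7%, 48.6% to 62.5%), beside 46.7% and 51.6% over the whole lists. The Wilson intervals, like every interval below, cover counting error only. They also take neighbouring sites as independent.

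Genes were compared by their share of each list. For each gene the summed cDNAs of the PDCD4 list were divided by the list total, as were those of the IgG list, and the log2 ratio of both shares was taken after 1 cDNA was added to each sum. The measure was computed for the 7305 genes with at least 20 cDNAs over both lists, and a gene was counted as higher or lower when the ratio reached 2-fold. All 10 genes reached that minimum. Of the 10, 2 were higher in the PDCD4 list (EIF4G1 and EIF4A3), against a background of 16.4% of all genes, and 1 was lower (EIF4E), against 16.1%. Their median log2 ratio was -0.02, and that of all genes was -0.10 with quartiles of -0.71 and 0.62. At 2 and 1 of 10 genes, the calls were near that background. RNA abundance was not analysed here, so more RNA of a gene and more contact per RNA cannot be told apart.

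**Figure D1:**
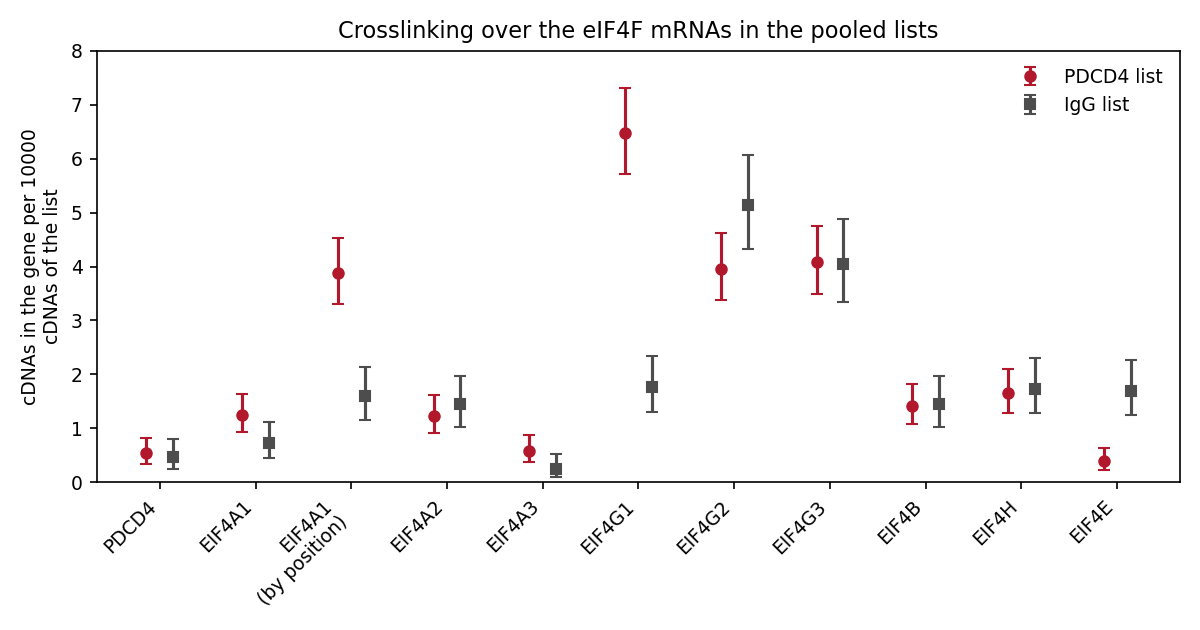
cDNAs in each gene per 10000 cDNAs of its list (vertical axis) for the PDCD4 list (red circles) and the IgG list (grey squares), with 95% Poisson counting intervals. EIF4G1 stood at 6.47 in the PDCD4 list, against 1.77 in the IgG list, and EIF4E at 0.391 and 1.70. EIF4A1 is drawn by label and again by position in the gene.

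Of the scaffold genes, EIF4G1 was the one whose share passed 2-fold. It encodes the principal eIF4G scaffold (chr3:184314495-184335358, plus strand, GRCh38, as for the genes below), and it had 89 sites with 265 cDNAs in the PDCD4 list, against 15 sites with 49 cDNAs in the IgG list. Per 10000 cDNAs this was 6.47 (95% Poisson interval 5.72 to 7.30) against 1.77 (1.31 to 2.35). The intervals of both lists did not overlap. The log2 ratio was 1.84 (95% exact interval 1.42 to 2.34), a 3.59-fold difference. By this ratio EIF4G1 was in place 466 of 7305 genes.

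The PDCD4 sites of EIF4G1 lay mainly in coding sequence. Of the 89 sites, 66 were coding, 11 were in the 3′UTR and none in the 5′UTR of the canonical transcript. Of the 15 IgG sites, 6 were coding and 2 were in the 3′UTR. The coding share was 74.2% (64.2% to 82.1%) in the PDCD4 list and 40.0% (19.8% to 64.3%) in the IgG list, and the intervals overlapped slightly. Since the PDCD4 list as a whole holds more coding cDNAs, the gene was also set against the coding totals alone. There EIF4G1 had 202 PDCD4 and 20 IgG cDNAs, and the log2 ratio was 1.60 (1.00 to 2.40).

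Within the EIF4G1 mRNA the most cDNAs lay in exon 10, a long coding exon. Its 822 nt make up 15.2% of the mRNA and held 24 sites with 81 cDNAs, 36.0% of the mRNA total in the PDCD4 list. This was 98.5 cDNAs per kb (78.3 to 122.5), against 31.4 per kb in the rest of the mRNA. However, in internal exons of at least 120 nt, 1.80% of the PDCD4 sites of the 10 genes lay in the last 60 nt. Those 60 nt are a larger part of a short exon, so densities per kb of long and short exons are not strictly comparable. Shorter coding exons had densities whose intervals overlapped it, with 109.8 per kb in exon 26 (66.1 to 171.5), 92.8 in exon 18 (58.2 to 140.5) and 89.6 in exon 13 (46.3 to 156.4). Exon 33, which holds the 3′UTR, was second by its sum, with 12 sites and 27 cDNAs. In the IgG list exon 10 held 2 sites with 6 cDNAs. When the coding sequence was cut into 3 equal parts, they carried 33, 22 and 11 PDCD4 sites from the 5′ to the 3′ end. The 100 nt with the most PDCD4 cDNAs, from position 1066 to 1165 of the spliced mRNA, held 7 sites with 25 cDNAs and no IgG site. This window was picked by its PDCD4 cDNAs, and the whole mRNA held 8 IgG sites, so the lack of one there carries no weight. EIF4G1 introns outside small RNA genes held 39 PDCD4 and 19 IgG cDNAs, with a log2 ratio of 0.43 (-0.36 to 1.34). In the mature mRNA the log2 ratio was 2.30 (1.79 to 2.94), above the intronic interval. The lists as a whole differ in the same direction, by a log2 ratio of 0.59 over all exonic cDNAs and of -0.43 over all intronic ones. Against the exonic and the intronic totals taken apart, over all transcripts, the log2 ratios of EIF4G1 were 1.48 and 1.31. With only scores greater than 5, EIF4G1 had 5 PDCD4 sites and 1 IgG site, and its log2 ratio was 0.17. The median of the 157 genes tested at that threshold was 1.33, so EIF4G1 was below it there.

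**Figure D2:**
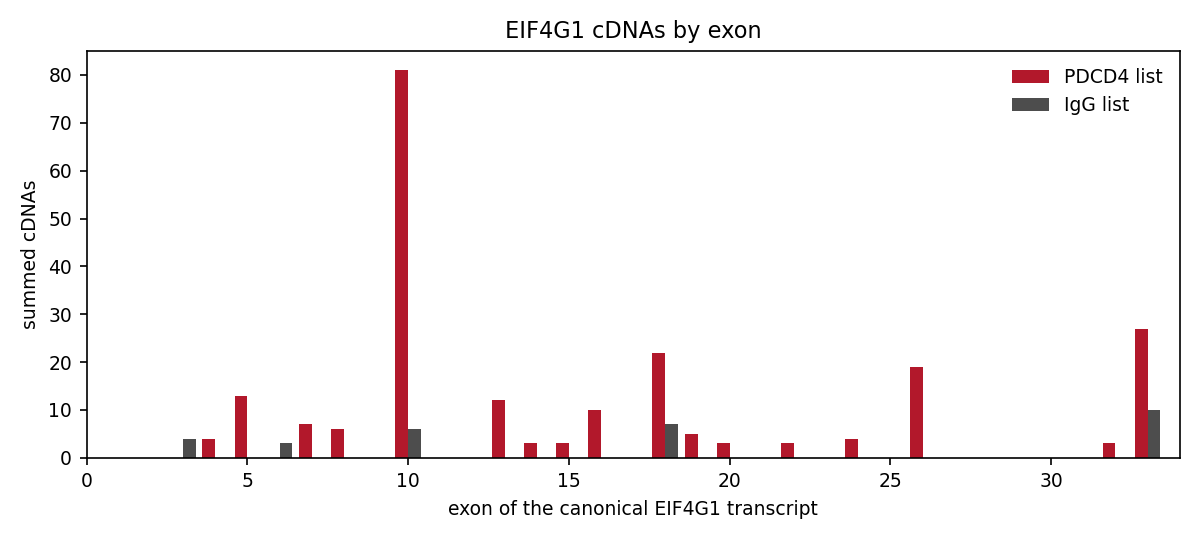
Summed cDNAs (vertical axis) in each exon of the canonical EIF4G1 transcript (horizontal axis) for the PDCD4 list (red) and the IgG list (grey). Exon 10 stands highest with 81 PDCD4 and 6 IgG cDNAs, and 17 of 33 exons hold a PDCD4 site.

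EIF4G2 encodes DAP5, an eIF4G relative that lacks the eIF4E-binding region (chr11:10797050-10808940, minus strand). It had 54 sites with 162 cDNAs in the PDCD4 list, against 50 sites with 142 cDNAs in the IgG list, which is 3.96 and 5.14 per 10000. The log2 ratio was -0.38 (-0.71 to -0.04), short of 2-fold. In the spliced mRNA it was -0.52 (-0.90 to -0.14), and exonic sites over all transcripts gave -0.92 against the exonic totals. The parts of the mRNA differed between the lists more than the sum did. Coding sequence held 33 PDCD4 sites against 15 IgG sites, and the intervals of the coding share, 47.8% to 73.0% and 19.1% to 43.8%, did not overlap. Conversely, the 3′UTR held 3 PDCD4 sites against 16, and the 5′UTR 4 against 11. These intervals count neighbouring sites as independent. The whole lists also shift this way, with 20.6% of all PDCD4 and 9.59% of all IgG sites coding over all transcripts. The 11 IgG sites in the 5′UTR lay within 51 nt of exon 1 and carried 35 cDNAs, and the 100-nt window around them held 1 PDCD4 site with 3 cDNAs. Set against coding totals alone, EIF4G2 had 100 PDCD4 and 42 IgG cDNAs and a log2 ratio of -0.44 (-0.96 to 0.13). The snoRNA gene SNORD97 within intron 14 held another 10 PDCD4 sites (27 cDNAs) and 4 IgG sites (12 cDNAs).

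EIF4G3 encodes the other full-length scaffold (chr1:20806292-21177285, minus strand), and its gene is far longer than those of its relatives. It had 69 sites with 167 cDNAs in the PDCD4 list, against 45 sites with 112 cDNAs in the IgG list, and the log2 ratio was 0.00 (-0.35 to 0.37). Most of these cDNAs were intronic, 128 in the PDCD4 list, against 104 in the IgG list (log2 ratio -0.27, -0.65 to 0.12). Intron 2, of 86961 nt, held 20 and 17 of the sites. The spliced mRNA held 39 PDCD4 cDNAs at 20 sites and 8 IgG cDNAs at 3 sites. Its log2 ratio was 1.58 (0.60 to 3.03), and this interval does not overlap the intronic one. Part of that gap is shared by the whole lists, whose log2 ratios were 0.59 over exonic and -0.43 over intronic cDNAs. Against the exonic and the intronic totals taken apart, over all transcripts, EIF4G3 stood at 1.14 and 0.12. Exon 14, 840 nt of coding sequence, held 7 of the 20 sites and 17 of the 39 cDNAs. On coding totals EIF4G3 had 30 and 8 cDNAs over all transcripts and a log2 ratio of 0.11 (-0.93 to 1.57). Over all coding cDNAs of the lists the log2 ratio was 1.11, the shift that coding totals take out.

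**Figure D3:**
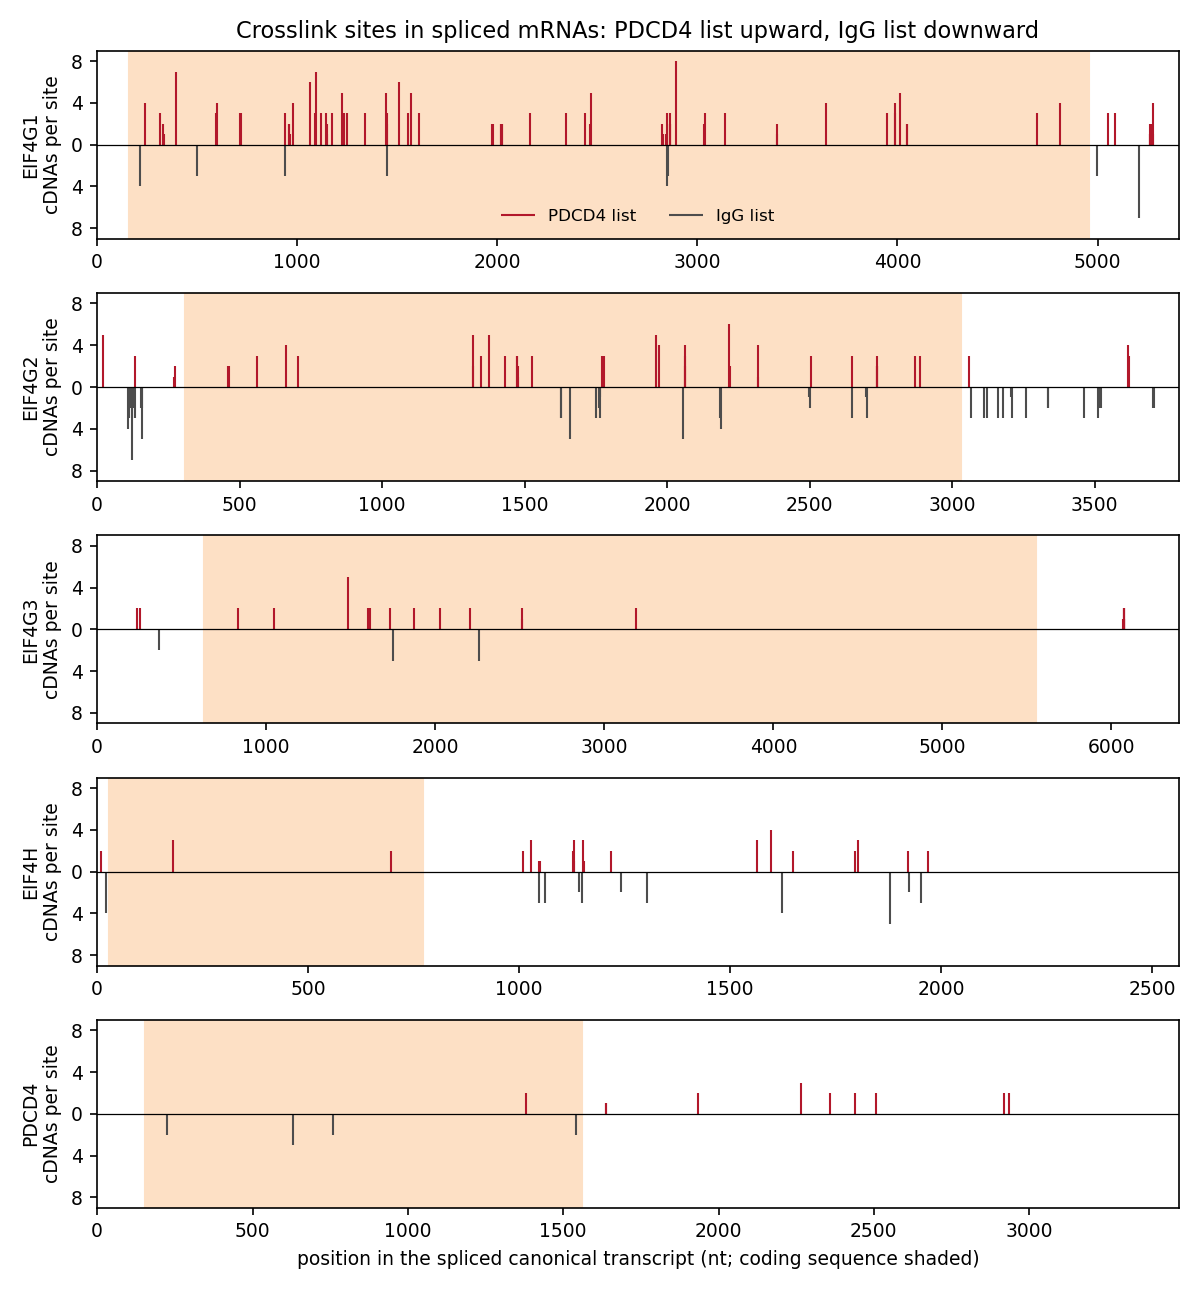
Crosslink sites along 5 spliced canonical transcripts, with the position in nt on the horizontal axis and the cDNAs of each site as a line, upward for the PDCD4 list and downward for the IgG list. Coding sequence is shaded. EIF4G1 shows PDCD4 sites along its coding sequence, EIF4G2 shows IgG sites grouped in both UTRs, and the PDCD4 mRNA shows PDCD4-list sites in its 3′UTR.

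The helicase genes gave 3 different pictures. EIF4A1 is the main eIF4A of growing cells (chr17:7572824-7579006, plus strand). By label it had 13 sites with 51 cDNAs in the PDCD4 list, against 6 sites with 20 cDNAs in the IgG list, a log2 ratio of 0.74 (0.01 to 1.61). Of the 51 cDNAs, 24 at 6 sites lay in the snoRNA genes SNORA48 and SNORA67, where no IgG site carries the EIF4A1 symbol. By position, small RNA genes within EIF4A1 held 12 PDCD4 sites with 40 cDNAs, and the IgG list had 2 sites there with 6 cDNAs, both labelled SENP3-EIF4A1. With sites in snoRNA and miRNA genes left out, the log2 ratio of EIF4A1 was -0.15, and with sites within 20 nt merged it was 0.10. The spliced mRNA held 15 PDCD4 and 12 IgG cDNAs.

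The label rule missed most crosslinking within EIF4A1. Another 38 sites of the PDCD4 list (108 cDNAs) and 9 of the IgG list (24 cDNAs) lie in the gene on its strand but are labelled with other genes alone. These labels were SENP3-EIF4A1, a read-through transcript (26 and 8 sites), and RP11-186B7.4 (12 and 1 sites). In the PDCD4 list 15 of the 38 sites were in EIF4A1 coding sequence and 10 in its 3′UTR. Counted by position, EIF4A1 had 51 sites with 159 cDNAs against 15 sites with 44 cDNAs, and the log2 ratio was 1.26 (0.80 to 1.80), which passes 2-fold. Without small RNA genes it was 1.05 (0.54 to 1.65). Its coding sequence then held 49 and 14 cDNAs, and on coding totals the log2 ratio was 0.06 (-0.75 to 1.10). All other genes were counted by label, so the values by position have no background made by the same rule. The 30 nt that follow the site were also found in transcripts of other genes, EIF4A1 pseudogenes and SNORA48B among them, for 6 of the 51 PDCD4 and 3 of the 15 IgG sites.

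EIF4A2 encodes the second cytoplasmic helicase (chr3:186783205-186789897, plus strand) and hosts several snoRNAs. It had 14 sites with 50 cDNAs in the PDCD4 list, against 14 sites with 40 cDNAs in the IgG list, a log2 ratio of -0.25 (-0.87 to 0.39). Small RNA genes in its introns held 30 of the 50 PDCD4 cDNAs and 28 of the 40 IgG cDNAs, the greater part in both lists. SNORA81 with MIR1248 held 11 PDCD4 cDNAs and SNORA63 another 11. The spliced EIF4A2 mRNA had 2 sites in each list, with 9 and 6 cDNAs. Over all transcripts every EIF4A2 site counted as exonic, with 41 PDCD4 and 34 IgG cDNAs in ncRNA exons, the small RNA genes included. The log2 ratio of -0.84 for exonic sites thus sets the same cDNAs against the exonic totals, and does not describe the spliced mRNA.

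EIF4A3, the helicase of the exon junction complex, had few cDNAs (chr17:80134369-80147151, minus strand). Its PDCD4 list values were 9 sites with 24 cDNAs, and its IgG values were 2 sites with 7 cDNAs. The log2 ratio was 1.08 (-0.05 to 2.67), just past 2-fold with an interval that includes 0, and it was 0.71 when 5 cDNAs were added in place of 1. All sites of both lists were exonic. The PDCD4 sites were spread over the 5′UTR (2), the coding sequence (4) and the 3′UTR (3), whereas both IgG sites were in the 3′UTR.

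**Figure D4:**
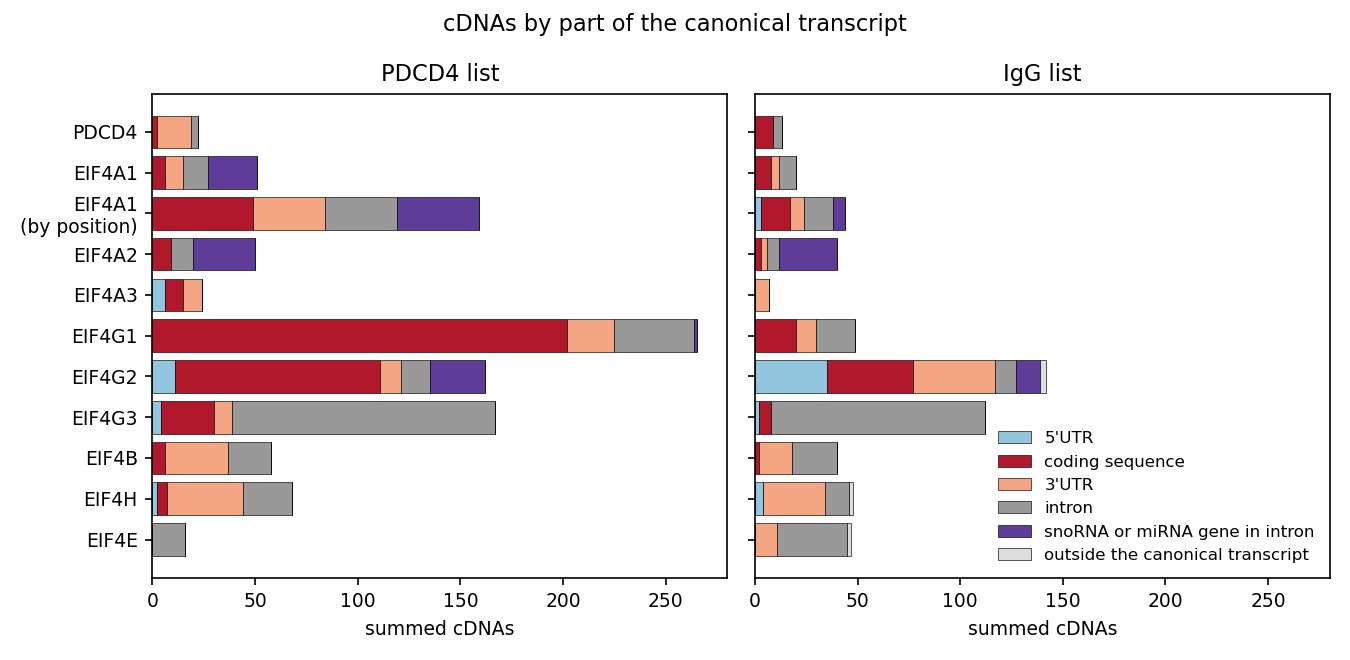
Summed cDNAs of each gene (horizontal axis) split by part of its canonical transcript, for the PDCD4 list (left) and the IgG list (right). Coding sequence makes up 202 of the 265 PDCD4-list cDNAs of EIF4G1, introns 128 of the 167 of EIF4G3, and small RNA genes 30 of the 50 of EIF4A2.

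The cofactor mRNAs were close to the median of all genes and were crosslinked in their 3′UTRs. EIF4B encodes an RNA-binding stimulator of eIF4A (chr12:53006282-53042215, plus strand). It had 23 sites with 58 cDNAs against 18 sites with 40 cDNAs, a log2 ratio of -0.04 (-0.64 to 0.59). Its 3′UTR held 13 PDCD4 and 8 IgG sites, and 7 of the 13 lay within 9 nt. With sites within 20 nt merged, the log2 ratio of EIF4B was -0.65. EIF4H encodes a smaller protein related to eIF4B (chr7:74174231-74197122, plus strand). It had 30 sites with 68 cDNAs against 17 sites with 48 cDNAs, a log2 ratio of -0.07 (-0.62 to 0.50). Its 3′UTR held 17 PDCD4 and 10 IgG sites, and its coding sequence 2 and 0. Exonic and intronic sites of EIF4H, each against its own class total over all transcripts, gave log2 ratios of -0.85 and 1.04. The intronic value rests on 17 PDCD4 and 7 IgG cDNAs. Introns of the canonical transcript held 24 and 12, with a log2 ratio of 0.38 (-0.62 to 1.57) against the whole lists.

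EIF4E, the cap-binding protein, was the gene with the lowest ratio of the 10 (chr4:98879276-98929133, minus strand). It had 6 sites with 16 cDNAs in the PDCD4 list, against 21 sites with 47 cDNAs in the IgG list. The levels were 0.391 (0.223 to 0.635) and 1.70 (1.25 to 2.26) per 10000, with no overlap of the intervals. The log2 ratio was -2.07 (-3.04 to -1.28), and 97.8% of the genes had a higher ratio. All 6 PDCD4 sites of EIF4E were intronic. The spliced mRNA therefore had 0 PDCD4 cDNAs, which allows up to 3, while the IgG list had 11 cDNAs at 7 sites of the 3′UTR, 6 of them within 11 nt. In EIF4E introns the counts were 16 and 34 cDNAs, with a log2 ratio of -1.61 (-2.61 to -0.76), or -1.05 against the intronic totals over all transcripts. Neither list had a site in EIF4E coding sequence.

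**Figure D5:**
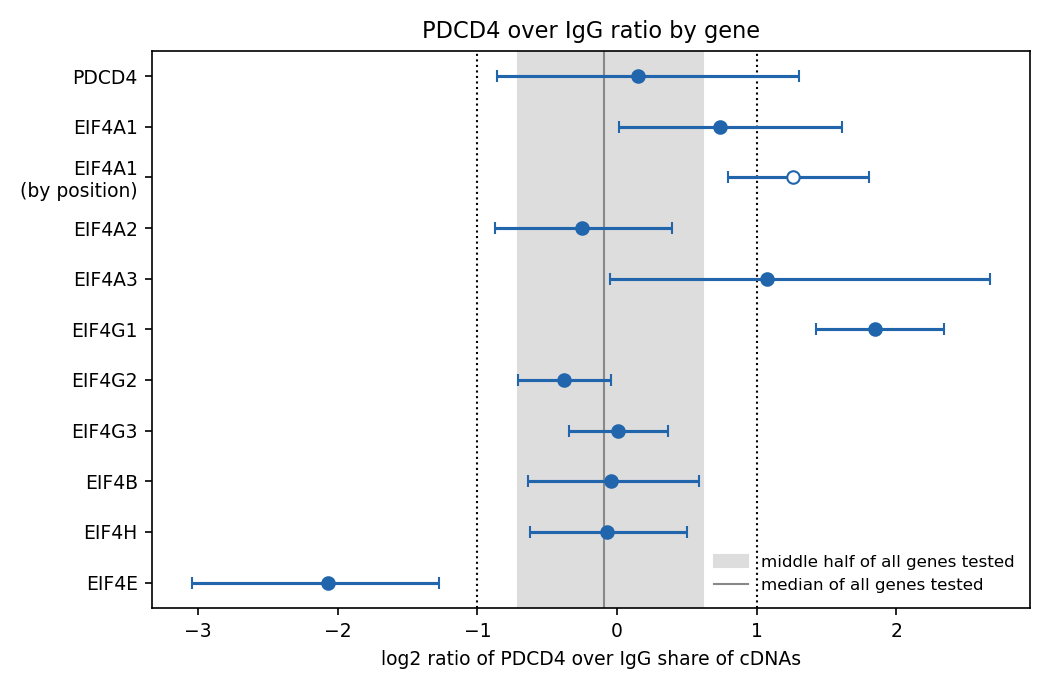
Log2 ratio of the PDCD4 over the IgG share of cDNAs (horizontal axis) for each gene, with 95% exact counting intervals. The grey band spans the quartiles of all 7305 genes (-0.71 and 0.62), the dotted lines mark 2-fold, and the open circle is EIF4A1 by position. EIF4G1 at 1.84 and EIF4E at -2.07 lie outside the dotted lines with their whole intervals.

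The PDCD4 mRNA itself had few cDNAs (chr10:110871795-110900006, plus strand). It had 11 sites with 22 cDNAs in the PDCD4 list, against 6 sites with 13 cDNAs in the IgG list, and the log2 ratio was 0.15 (-0.86 to 1.30). The highest score was 3 in both lists. The places differed, since 9 of the 11 PDCD4-list sites were in the 3′UTR, against 0 of the 6 IgG sites, 4 of which were in coding sequence. The PDCD4 3′UTR, 1921 nt from the stop codon onwards, holds 1 match to the seed of miR-21, the motif ATAAGCT. The mature microRNA is shown with its seed in capitals, and then the match within 30 nt of the 3′UTR, also in capitals (microRNA from RefSeq, mRNA from GRCh38).
hsa-miR-21-5p: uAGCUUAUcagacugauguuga
PDCD4 3′UTR, chr10:110898318-110898347, plus strand: tggaatattctaATAAGCTaccttttgtaa

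The match begins 245 nt after the last amino acid codon, and no site of either list lay inside it. The nearest PDCD4-list site was 130 nt after the start of the match and the nearest IgG site 265 nt before it. The motif was searched on the mRNA strand, and 10.7% of the 6264 canonical 3′UTRs that are at least as long hold it in their first 1921 nt.

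Levels between genes were compared per kb of spliced mRNA and per 10000 cDNAs of a list, with Poisson intervals. In the PDCD4 list EIF4G1 was first of the 10 at 1.02 (0.889 to 1.16), and its interval overlapped that of EIF4G2 at 0.779 (0.647 to 0.931). EIF4H at 0.419 (0.305 to 0.563) lay apart from EIF4G2 but not from EIF4B at 0.234 (0.165 to 0.323). EIF4A3, EIF4A1, EIF4G3, PDCD4 and EIF4A2 followed, from 0.232 down to 0.117, each overlapping its neighbours. EIF4E was last at 0, and the 3 cDNAs that a count of 0 allows would be 0.0302. EIF4A1 by position stood at 1.17 (0.931 to 1.45), not apart from EIF4G1. In the IgG list EIF4G2 was first at 1.12 (0.924 to 1.34), apart from EIF4H at 0.480 (0.333 to 0.671), and EIF4G1 was at 0.201 (0.136 to 0.287).

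Together the 10 genes had 125 of 318 PDCD4 sites in coding sequence over all their transcripts (39.3%, 34.1% to 44.8%), beside 20.6% of all PDCD4 sites. In the IgG list they had 32 of 194 (16.5%, 11.9% to 22.4%), beside 9.59%. The shares turn on the order of placement: with UTRs put before coding sequence they were 8.81% and 9.79%, so that the IgG list was no longer the lower one. EIF4G1 weighed heavily in the first of these shares. Without it 59 of 229 PDCD4 sites (25.8%, 20.5% to 31.8%) and 26 of 179 IgG sites (14.5%, 10.1% to 20.4%) were coding. Sites in snoRNA and miRNA genes made up 7.86% of the member sites of the PDCD4 list and 7.22% of the IgG list, beside 0.417% and 0.337% of all sites.

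Within exons the sites were unevenly placed. In internal exons of at least 120 nt, 45 of 111 PDCD4 sites of the 10 genes lay in the first 60 nt (40.5%, 31.9% to 49.8%) and 2 in the last 60 nt (1.80%, 0.496% to 6.33%). Of the 21 IgG sites, 10 lay in the first and 1 in the last 60 nt. Over all genes the shares were 41.4% and 3.37% in the PDCD4 list and 39.0% and 4.68% in the IgG list.

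Other factors of the same pathway were read in the same way from lists by function, with the background above. Of 7 regulators of eIF4E with enough cDNAs none was higher and 1 lower, EIF4EBP2, a repressor that competes with eIF4G for eIF4E (log2 ratio -1.77). Of 7 poly(A)-binding and termination factors 1 was higher, ABCE1, which recycles ribosomes (1.24). Of 8 kinases and ubiquitin ligase parts that act on PDCD4 1 was higher, the S6 kinase gene RPS6KB2 (1.48), and 1 lower, BTRC, which recognises phosphorylated PDCD4 (-1.12). Of 4 regulators of the PDCD4 mRNA 2 were lower, SSB (-1.52) and VMP1, whose locus includes the miR-21 gene (-1.86).

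The other lists hold factors of start codon recognition, the eIF3 complex and elongation. Of 8 ternary complex and start codon factors 2 were higher and 1 lower, with EIF5 at 2.12 and EIF2B3 at -1.49. Of 9 eIF3 subunits 4 were higher, from EIF3A at 1.11 to EIF3M at 2.28, and the list median was 0.00. Of 7 elongation factors 4 were higher, from EEF2 at 1.35 to EIF5A, highest with 413 PDCD4 and 34 IgG cDNAs, and the list median was 1.35, beside -0.02 for the 10 genes.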

How the data were processed

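Crosslink sites were called by the authors with iCount on iCLIP reads mapped to the human genome of Ensembl release 88 (GRCh38). Versions and settings are not given in the sources used here. The deposited score of each 1-nt site is its count of cDNAs, not normalized and pooled over the 2 replicates of an immunoprecipitation, at a false discovery rate under 5%. The filter on scores greater than 5 is not in the lists and was not applied here except as an alternative.

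Sites were placed in GENCODE release 44 on their strand, with coding sequence ahead of UTRs (3′ then 5′), ncRNA exons and last introns, over all transcripts for shares of all member sites, and in the canonical transcript elsewhere. The labels' Ensembl identifiers were known to that annotation for 99.7% of PDCD4 sites, and no site lay beyond a chromosome end. Ratios have exact (Clopper-Pearson), levels Poisson and shares Wilson 95% intervals. The floor for a count of 0 is 3 cDNAs. Shared sequence was searched as exact 30-nt matches in GENCODE transcripts. The members and lists were chosen with earlier results of these data known. All 10 members are named, and of other lists only genes past 2-fold at either end of the list.

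The ratio was tested on simulated counts for the 7305 genes, drawn as independent Poisson counts from the pooled shares. With 200 genes changed by 2 on the log2 scale, 97.0% were called, as were 2.90% of unchanged genes. The simulated counts held counting error alone, so 2.90% is not a rate of false calls in the real lists. Python 3.11.15 was used with pandas 2.3.3, numpy 2.4.6, scipy 1.17.1, pysam 0.24.0 and matplotlib 3.10.9.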

Additional observations from a re-analysis of the deposited data

Results flagged for a closer look

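Crosslinking outside the labelled comparison was seen in EIF4A1. Sites within the gene that carry only other labels had 108 PDCD4 and 24 IgG cDNAs, a log2 ratio of 1.56 (95% exact interval 0.95 to 2.31). Of these labels, SENP3-EIF4A1 had a log2 ratio of 1.20 (0.53 to 2.02) and RP11-186B7.4 one of 2.56 (1.27 to 5.28). This is above the 0.74 of the sites that carry the EIF4A1 symbol, and the difference was not tested.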

How the results depend on the processing

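No paired analysis was possible because each list pools its replicates, and for the same reason no replicate could be left out. Of the 10 genes, 2 were higher and 1 lower in the PDCD4 list. With only scores greater than 5, which left EIF4A1 and EIF4G1, 1 was higher and 0 lower. Of all 157 genes tested at that threshold, 51.0% were higher and 21.0% lower. EIF4A1 then had 25 PDCD4 and 0 IgG cDNAs. With the IgG count set at the floor of 3 cDNAs it was 2.15-fold higher, without the counting error of the 25. The 2.74 of the ratio is set by the cDNA added. Its site in exon 5 was coding, and its other sites with such scores lay in intron 9, in or next to SNORA67. The median log2 ratio of EIF4A1 and EIF4G1 was 1.46, or 0.64 with the IgG count of EIF4A1 at that floor, beside 1.33 over the 157 genes. With 5 cDNAs added 1 was higher, beside 11.2% of all genes. With a minimum of 50 cDNAs, which left 8 genes, 1 was higher, beside 13.6%. With only exonic sites 0 were lower, since EIF4E then fell short of the minimum, and the 2 higher genes were EIF4G1 and EIF4G3 (1.14), with EIF4A3 at 0.49. Of all genes tested on exonic sites, 19.1% were higher and 18.9% lower. With only intronic sites, which left 5 genes, the higher ones were EIF4G1 and EIF4H (1.04), beside 15.8% of all genes. That value of EIF4H rests on 17 PDCD4 and 7 IgG cDNAs. The coding share of member sites with scores greater than 5 was 53.8% in the PDCD4 list (13 sites) and 0% in the IgG list (2 sites), and with UTRs placed before coding sequence it was 8.81% and 9.79%. The ratio of EIF4G1 was from 1.31 to 2.03 under the alternatives other than the score filter, and that of EIF4E from -2.17 to -1.05. Counting EIF4A1 by position and leaving out small RNA genes were chosen after seeing the data, and the first made 3 genes higher. The causes of these changes were not tested. Low counts limit EIF4A3, EIF4E and PDCD4 most.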
